A study of Mus musculus with 8 samples.

Results

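The genes examined were 10 mouse genes whose enzymes build NAD+ or turn it into NADP+: Nampt, Nmnat1, Nmnat2, Nmnat3, Nmrk1, Naprt, Nadsyn1, Nadk, Nadk2 and Pnp. They were chosen by name for their place in the pathway, with earlier results of these data known, and all 10 were found among the 55487 gene identifiers of the count table. Of these, 9 were among the 12060 genes with enough counts to be tested, and Naprt was not. The cells were muscle stem cells (MuSCs) of aged mice, labelled Old, sorted as CD31-, CD11b-, CD45-, Sca1-, CD34+ and Integrin α7+ cells and kept in growth medium for 72 hours. The control group received 1% DMSO and is called vehicle, and the other group received the combination of nicotinamide and pyridoxine, NAM/PN, at 1 mM. Separate concentrations of nicotinamide (NAM) and pyridoxine (PN) were not given in the labels, nor was it said whether the NAM/PN wells held DMSO. The supplementary methods describe a MuSC proliferation assay with another DMSO concentration and a longer culture, and the values given here are those of the labels of these libraries. The 8 mice, male wild-type C57BL/6JRj according to the methods, were combined into 4 pools of 2 mice, and each pool gave 1 vehicle and 1 NAM/PN library, so n = 4 libraries per group and same-numbered libraries shared their mice.

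NAD+ carries electrons in energy metabolism and is consumed by sirtuins and PARPs, which release nicotinamide. In the salvage route, NAMPT joins nicotinamide to a phosphoribosyl group to form nicotinamide mononucleotide (NMN), and the NMNAT enzymes convert NMN to NAD+. Nicotinamide riboside can enter as NMN through the NMRK kinases, or be split to nicotinamide by purine nucleoside phosphorylase. Nicotinic acid enters through NAPRT, and tryptophan through the kynurenine route that ends at QPRT. Both of these pass through nicotinic acid adenine dinucleotide, which NADSYN1 amidates to NAD+. NAD kinases phosphorylate NAD+ to NADP+, whose reduced form, NADPH, serves biosynthesis and antioxidant defence. NAM is thus a substrate of this pathway, which makes the response of its genes to NAM/PN a question the design can address at the level of RNA.

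Libraries held between 6472484 and 10163101 counts. Levels are given as CPM, counts per 1000000 of the library size scaled by the trimmed mean of M-values. A kit that reads the 3′ end gives about 1 read per transcript, so CPM was not divided by length. The floor taken for detection, 3 counts per library, was worth 0.28 to 0.457 CPM. Ribosomal RNA genes took 21.1% of the counts in vehicle 3 and 5.97% in NAM/PN 4, the extremes of the 8 libraries. The myogenic identity genes, among them Pax7, Myod1 and Chrna1, were present, with 10 of 10 tested, 0 passing edgeR's test (1 at an unadjusted p under 0.05) and summed levels of 4320 to 5080 CPM in vehicle and 3860 to 4440 CPM with NAM/PN. Of a myogenic differentiation list of 22 genes, 20 were tested, and all 20 had a negative log2 fold change. Of these, 12 passed edgeR's test as lower with NAM/PN, beside 0.995% of all tested genes. The list's summed level was 2080 to 3980 CPM in vehicle and 473 to 1120 CPM with NAM/PN. Of the 8 genes in each list of other cell types, some were at 0 counts in all 8 libraries. These were 3 fibro-adipogenic genes (Pdgfra, Lum and Dpt), 3 endothelial genes (Emcn, Cldn5 and Flt1) and 1 mural gene (Myh11). In the immune list 6 were at 0, among them Ptprc, Adgre1 and Csf1r, and in the Schwann list 3, among them S100b. Others had counts. Endothelial Egfl7 averaged 8.31 CPM in vehicle and 16.9 CPM with NAM/PN, immune Cd68 3.6 and 4.85 CPM, and Schwann Ngfr 21.6 and 19.1 CPM. Endothelial Pecam1 had 48 counts in the 8 libraries together. Summed levels of the mural list were 285 to 611 CPM in vehicle and 95.9 to 156 CPM with NAM/PN. Acta2 alone averaged 367.9 and 70.45 CPM, while Pdgfrb and Kcnj8 had 0 counts in 7 libraries and Rgs5 in 6. The sum therefore describes mainly Acta2. Sums of the fibro-adipogenic list reached 1130 CPM with NAM/PN, from Col1a1 in NAM/PN 1 and NAM/PN 2. The Schwann cell list, led by Ncam1, which myogenic cells also express, summed to 1050 to 1350 CPM in vehicle and 476 to 579 CPM in NAM/PN libraries. In these lists Acta2 (log2 fold change -2.38), Ncam1 (-1.22) and Col3a1 (-1.17) passed edgeR's test as lower with NAM/PN, beside 0.995% of all tested genes. Endothelial sums were 3.46 to 21.2 and 9.85 to 29.6 CPM, and immune sums 4.08 to 14.1 and 3.5 to 10.3 CPM, with 0 genes called. The part of these shifts in the values below was not tested. In bulk libraries, fewer cells of a type and less RNA per cell cannot be told apart.

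Among the 10 genes, the NAD kinase gene Nadk and the salvage gene Nampt carried most of the transcripts. In the vehicle libraries the 10 genes summed to 228 CPM, of which Nadk made up 45.2%, Nampt 24.8% and Pnp 8.99%. Nadk averaged 103 ± 7.24 CPM (SD, n = 4) and Nampt 56.6 ± 12.3 CPM. Pnp, for purine nucleoside phosphorylase, stood at 20.5 ± 8.78 CPM. Vehicle ranges of these 3 genes did not overlap, and their order was the same in 8 of 8 libraries. Nmnat1, Nmnat2, Nmnat3, Nadk2, Nadsyn1 and Nmrk1 followed with means between 12.1 and 6.15 CPM, and Naprt was at 0 in all 4 vehicle libraries. From Pnp down to Nmrk1 each gene's vehicle range overlapped that of the next in the order. Within libraries, Pnp was above Nmnat1 in 7 of 8, Nmnat1 above Nmnat2 and Nadk2 above Nadsyn1 in 6 of 8, and the other neighbours in 3 or 4 of 8. Among all tested genes, Nadk stood at the 84.5th percentile of vehicle level and Nampt at the 71.8th. Nmrk1 was at the 19.3rd. When CPM was divided by the length of the longest annotated transcript, the top 4 kept their places, whereas Nmrk1 moved from rank 9 to 6, Nmnat2 from 5 to 8 and Nadk2 from 7 to 9.

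**Figure D1:**
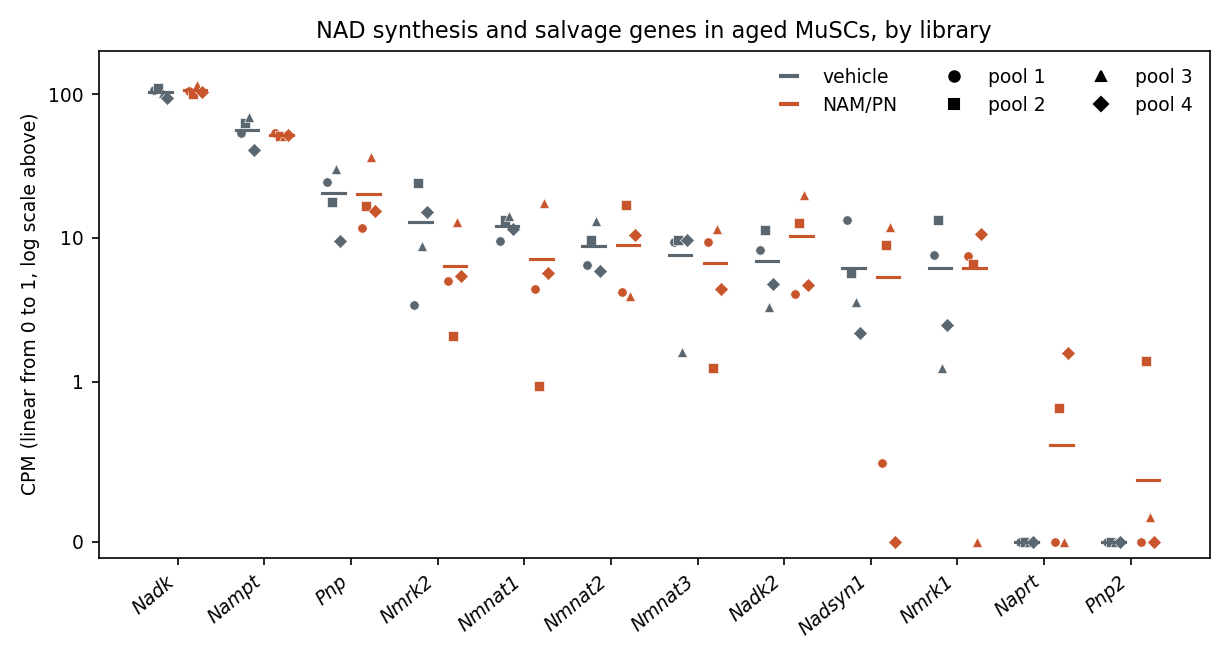
CPM of the 10 NAD synthesis and salvage genes and the paralogs Nmrk2 and Pnp2 in each of the 8 libraries, on an axis that is linear from 0 to 1 and logarithmic above; colours give the group, symbols the pool and short lines the mean of 4 libraries. Nadk and Nampt lie above all others in every library, and every gene shown has overlapping groups.

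Promoter sequence is shown for the most abundant salvage and kinase genes and for a pair of genes of the tryptophan route that had 0 counts in every library, because the routes differed in whether they were detected. The windows hold the 150 bases before a RefSeq transcription start (GRCm38.p6), written 5′ to 3′ on the gene's strand, with each CpG in capitals. Nampt is at chr12:32820185-32820334 on the plus strand, Nadk (the second of its 2 annotated starts) at chr4:155563665-155563814 on the plus strand, Qprt at chr7:127122030-127122179 and Haao at chr17:83846791-83846940, both on the minus strand.
Nampt: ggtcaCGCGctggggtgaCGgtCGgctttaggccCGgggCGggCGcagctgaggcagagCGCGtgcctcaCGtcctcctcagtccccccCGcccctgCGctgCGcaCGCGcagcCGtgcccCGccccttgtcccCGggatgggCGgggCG
Nadk: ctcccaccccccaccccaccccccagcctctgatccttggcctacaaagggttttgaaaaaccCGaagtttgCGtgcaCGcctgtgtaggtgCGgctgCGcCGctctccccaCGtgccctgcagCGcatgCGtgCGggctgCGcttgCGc
Qprt: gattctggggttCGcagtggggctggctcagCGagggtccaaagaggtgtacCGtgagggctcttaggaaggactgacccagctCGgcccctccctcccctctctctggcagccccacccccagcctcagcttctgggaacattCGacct
Haao: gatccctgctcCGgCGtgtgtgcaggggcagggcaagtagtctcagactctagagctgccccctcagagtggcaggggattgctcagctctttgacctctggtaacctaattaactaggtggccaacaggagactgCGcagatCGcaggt
These windows held 20 CpGs for Nampt, 12 for Nadk, 5 for Qprt and 4 for Haao. In the longer window of 250 bases before to 50 after a start, Nampt held 36 CpGs, against a median of 7 over all 32851 RefSeq promoters and of 21 over the 11349 promoters of tested genes. Promoters of 8 of the 10 members were matched, with 10 starts and a median of 23.5 CpGs (4 to 36), and the 4 belonged to the other start of Nadk, below the 7 of Qprt and the 10 of Haao in windows of this length. In the same windows promoters of 9 of the 12 tryptophan-route genes had a median of 10. Promoters of genes at 0 in all 8 libraries had a median of 3, below that of tested genes, so a difference of this kind is not particular to NAD metabolism. The GC box, GGGCGG or CCGCCC (each the reverse complement of the other), occurred 5 times in the Nampt window, in 35.7% of all promoters and in 64.7% of those of tested genes. The E-box CACGTG, its own reverse complement, occurred 1 time in the Nadk window, in 7.15% of all promoters and in 10.2% of those of tested genes. Such matches describe letters and not binding sites.

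Nampt, the rate-limiting gene of nicotinamide salvage (ENSMUSG00000020572, GRCm38 chr12:32819545-32853349), was even across the treated libraries. It stood at 53.3, 63.4, 68.9 and 40.9 CPM in vehicle 1 to 4 and at 53.9, 51.1, 50.9 and 52.2 CPM in NAM/PN 1 to 4. All NAM/PN values lay inside the vehicle range. The log2 fold change was -0.12 (SE 0.233), with a 95% interval of 0.656- to 1.29-fold, and the quasi-likelihood test of edgeR, adjusted by Benjamini-Hochberg over all tested genes, gave an adjusted p of 0.963.

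The NMNAT genes, which make the last step to NAD+, were all detected at low levels. Nmnat1 (ENSMUSG00000028992, chr4:149467572-149485202) encodes the nuclear enzyme. It was at 9.59, 13.3, 14.2 and 11.5 CPM in vehicle and at 4.43, 0.975, 17.5 and 5.70 CPM with NAM/PN. Libraries NAM/PN 1, 2 and 4 lay below all vehicle values and NAM/PN 3 above them, so the groups overlapped. The log2 fold change was -0.77 (SE 0.716; 0.208- to 1.66-fold; edgeR adjusted p = 0.873), and it was -1.29 with the pool as a block (adjusted p = 0.725) and -1.70 without NAM/PN replicate 3. Nmnat2 (ENSMUSG00000042751, chr1:152954993-153119261), whose cytoplasmic enzyme is best known from axons, averaged 8.82 ± 3.37 CPM in vehicle (5.88 to 13.2) and 8.90 ± 6.18 CPM with NAM/PN (3.96 to 17.0). Its log2 fold change was 0.01 (SE 0.676; 0.379- to 2.69-fold; edgeR adjusted p = 0.999). Nmnat3 (ENSMUSG00000032456, chr9:98287435-98420438), for the mitochondrial enzyme, was at 9.35, 9.68, 1.61 and 9.69 CPM in vehicle and at 9.36, 1.25, 11.6 and 4.39 CPM with NAM/PN. Vehicle 3 was low among otherwise close vehicle values, and the groups overlapped (log2 fold change -0.19, SE 0.851, 0.255- to 3.01-fold, edgeR adjusted p = 0.987). A processed pseudogene, Gm28530, lies within Nmnat3 and held 55 counts in the 8 libraries together.

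Within the NMNAT family the share of each gene was more spread among NAM/PN than among vehicle libraries. With vehicle, Nmnat1 supplied 42.5% ± 4.73 of the family's counts (37.7% to 48.9%), Nmnat2 30.6% ± 10.4 and Nmnat3 26.9% ± 14.6. With NAM/PN the shares were 27.6% ± 19.7 for Nmnat1 (5.07% to 53%), 43.6% ± 34.0 for Nmnat2 and 28.8% ± 19.4 for Nmnat3. All 3 genes thus contributed in both groups, and the difference in spread was not tested. The family summed to 28.6 ± 3.09 CPM in vehicle (25.5 to 32.6) and 22.7 ± 6.98 CPM with NAM/PN (18 to 33), and these ranges overlapped.

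**Figure D2:**
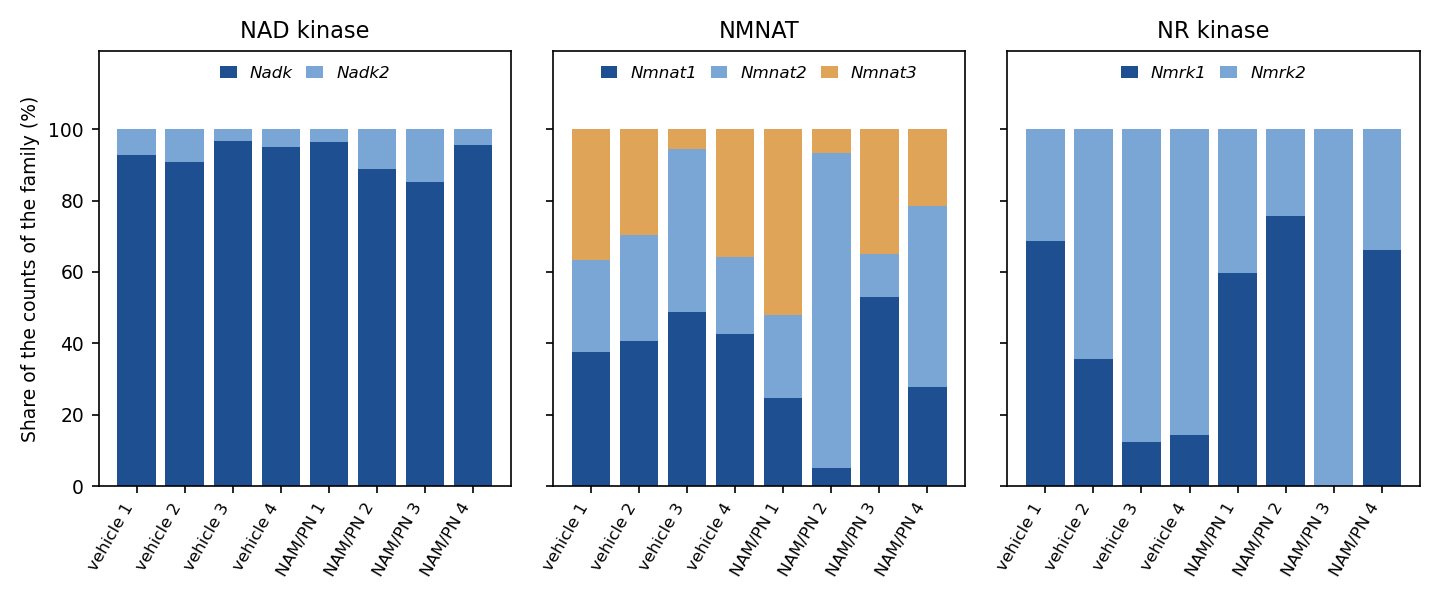
Share of each gene in the counts of its family, in percent, for each of the 8 libraries: NAD kinases (left), NMNAT (middle) and nicotinamide riboside kinases (right). Nadk made up 85.2% to 96.8% of the kinase counts in every library, whereas Nmnat2 ranged up to 88.4% in NAM/PN 2 and Nmrk1 from 0% to 75.8%.

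The nicotinamide riboside kinases were detected but scattered. Nmrk1 (ENSMUSG00000037847, chr19:18631950-18652428) stood at 7.58, 13.3, 1.24 and 2.5 CPM in vehicle and at 7.51, 6.55, 0 and 10.6 CPM with NAM/PN. It was absent from the counts of NAM/PN 3 and present above the floor in the other 7 libraries, with overlapping groups (log2 fold change 0.01, SE 1.10, 0.204- to 4.93-fold, edgeR adjusted p = 1.000). Its paralog Nmrk2 (ENSMUSG00000004939, chr10:81198170-81202051), known as the muscle-enriched kinase, was at 3.43, 23.9, 8.77 and 15.1 CPM in vehicle and at 5.05, 2.09, 12.8 and 5.42 CPM with NAM/PN. These groups overlapped too, at a log2 fold change of -1.02 (SE 0.714; 0.175- to 1.39-fold; edgeR adjusted p = 0.784). It was -0.53 without vehicle replicate 2, -1.61 without NAM/PN replicate 3 and -0.24 without both libraries of pool 2. An antisense gene, Atcayos, overlaps Nmrk2 and held 315 counts in the 8 libraries. Whether counting used strand was not given in the sources used here, so reads of this pair cannot be assigned with certainty.

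Pnp (ENSMUSG00000115338, chr14:50931082-50965237), whose enzyme splits nicotinamide riboside as well as purine nucleosides, was at 24.6, 17.9, 29.9 and 9.58 CPM in vehicle and at 11.8, 16.6, 36.5 and 15.3 CPM with NAM/PN. Both groups were highest in pool 3 and the ranges overlapped widely. The log2 fold change was -0.03 (SE 0.445; 0.513- to 1.87-fold; edgeR adjusted p = 0.995). Pnp2 (ENSMUSG00000068417, chr14:50955992-50964749), a close copy on the same strand inside the annotated span of Pnp, had 0 counts in the 4 vehicle libraries and in NAM/PN 1 and 4, 10 counts in NAM/PN 2 and 1 count in NAM/PN 3. Reads that match both genes may have gone uncounted, so the split between Pnp and Pnp2 is uncertain.

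Among the members, the gene for the entry of nicotinic acid had the fewest counts. Naprt (ENSMUSG00000022574, chr15:75890956-75894481), whose enzyme attaches nicotinic acid to the phosphoribosyl group, had 0 counts in all 4 vehicle libraries and in NAM/PN 1 and 3, which allows up to 3 counts in each. It had 6 counts in NAM/PN 2 and 17 in NAM/PN 4, equal to 0.836 and 1.59 CPM, and lay below the filter of the edgeR fit. DESeq2 gave it no adjusted p. The annotation places its 5′ end within Eef1d on the same strand, away from the 3′ end that the kit reads. Nadsyn1 (ENSMUSG00000031090, chr7:143795584-143822849), the amidating enzyme that nicotinic acid and tryptophan routes share, was at 13.4, 5.71, 3.58 and 2.18 CPM in vehicle and at 0.492, 8.92, 11.9 and 0 CPM with NAM/PN. NAM/PN 1 and 4 lay below all vehicle values and NAM/PN 2 and 3 among them (log2 fold change -0.23, SE 1.21, 0.147- to 4.96-fold, edgeR adjusted p = 0.990). With the pool as a block the log2 fold change was -1.74 (adjusted p = 0.874). It turned to 0.47 without vehicle replicate 1, 0.15 without NAM/PN replicate 1, 0.19 without NAM/PN replicate 4 and 0.85 without both libraries of pool 1.

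Upstream of Nadsyn1, the tryptophan route was largely undetected. Of 12 genes, 7 had 0 counts in all 8 libraries: Tdo2 and Ido2, which open the route, Kmo, Kynu and Haao in its middle, Acmsd, which diverts it, and Qprt, which leads into NAD+ synthesis. The floor of 3 counts applies to each. Ido1, which also opens the route, had 22 counts in vehicle 2 and 0 in 7 libraries. Only 2 genes passed the filter of edgeR's test, and 0 of these were called, with 0 also at an unadjusted p under 0.05. DESeq2, which does not use this filter, called 0 genes of the route, with its smallest adjusted p, 0.0588, at Afmid. The most abundant, Kyat1, a transaminase that also acts on other amino acids, had 4.76 ± 3.71 CPM in vehicle and 3.89 ± 1.99 CPM with NAM/PN (log2 fold change -0.29, edgeR adjusted p = 0.986). Its direction turned with the pool as a block (0.078) and with libraries or pools left out (-0.71 to 0.15).

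Of the NAD kinase genes, Nadk was the most abundant of the 10 members and Nadk2 among the low ones. Nadk (ENSMUSG00000029063, chr4:155562378-155591001), the cytosolic enzyme, stood at 106, 111, 101 and 93.9 CPM in vehicle and at 105, 100, 115 and 104 CPM with NAM/PN. The groups overlapped, and both lay within a narrow range. The log2 fold change was 0.04 (SE 0.180), with a 95% interval of 0.793- to 1.34-fold (edgeR adjusted p = 0.986). Nadk2 (ENSMUSG00000022253, chr15:9071260-9110891), the mitochondrial enzyme, was at 8.29, 11.3, 3.33 and 4.79 CPM in vehicle and at 4.06, 12.7, 19.9 and 4.67 CPM with NAM/PN. NAM/PN 2 and 3 were the highest of the 8 and NAM/PN 1 and 4 lay among the vehicle values (log2 fold change 0.57, SE 0.718, 0.525- to 4.22-fold, edgeR adjusted p = 0.926). This value was 0.041 without NAM/PN replicate 3 and -0.19 without both libraries of pool 3. Nadk made up 93.8% ± 2.66 of the counts of the pair with vehicle and 91.5% ± 5.41 with NAM/PN.

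Across the members, 0 of the 9 tested passed edgeR's quasi-likelihood test at an adjusted p of 0.05, beside 1.28% of all 12060 tested genes (154 genes). At an unadjusted p under 0.05 the count was also 0 of 9, beside 9.28% of all genes. DESeq2 and voom with limma called 0 as well. Of the 9, 4 had a positive and 5 a negative log2 fold change, with a median of -0.03, beside -0.0022 over all tested genes. No member had groups that did not overlap, beside 7.21% of all tested genes. With 9 genes at this background a count of 0 says little about the members as a set, and a p that misses the threshold does not show that levels were equal.

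The intervals differed by gene. Nadk and Nampt had the narrowest, and those of Nadsyn1 and Nmrk1 the widest, from 0.147- to 4.96-fold and from 0.204- to 4.93-fold. The biological coefficient of variation, the spread between libraries beyond counting, was 0.195 for Nadk and 0.245 for Nampt but 1.11 for Nadsyn1 and 1.01 for Nmrk1. Over all tested genes its median fell from 1.17 in the lowest of 4 equal groups by level to 0.218 in the highest. The lowest group held 3 of the members and the highest held Nadk alone.

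**Figure D3:**
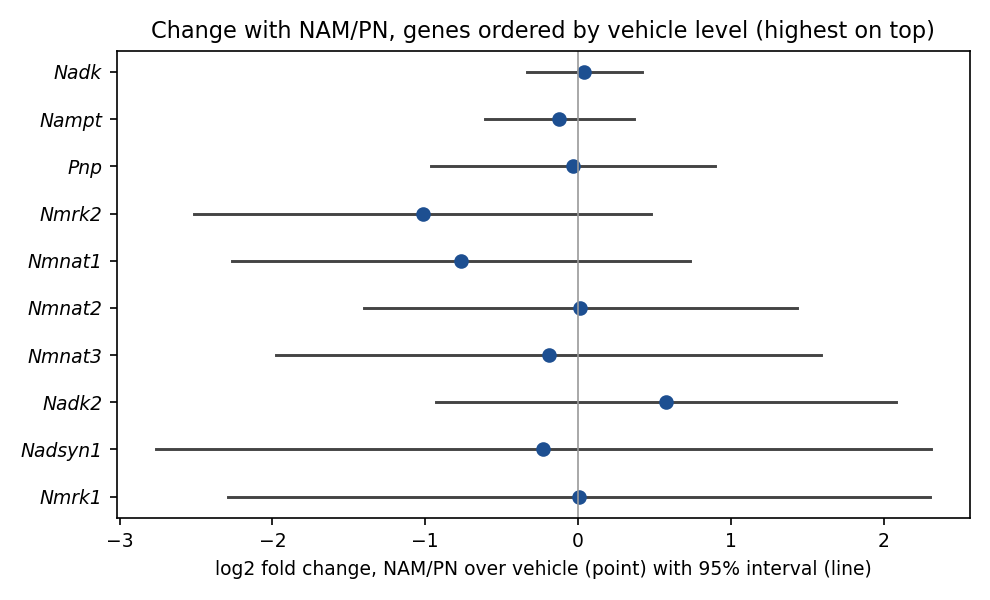
Log2 fold change of NAM/PN over vehicle for the 9 tested members and Nmrk2 (points) with the 95% interval of edgeR's quasi-likelihood fit (lines), ordered by mean vehicle level. All intervals include 0, and they run from -0.33 to 0.42 for Nadk and from -2.77 to 2.31 for Nadsyn1.

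Further genes that handle NAD+ or its precursors were read from the same fit. Of 47 such genes, the paralogs included, 27 were tested, 0 passed edgeR's test at an adjusted p of 0.05 (1.28% of all tested genes) and 4 had an unadjusted p under 0.05 (9.28% of all tested genes). DESeq2 called 1 gene, Pgd, of 388 called over all genes, and voom 0 of 232. Among 6 tested nucleotidases and transporters, 4 had positive and 2 negative log2 fold changes. Slc29a1, the equilibrative nucleoside transporter ENT1, was at 162, 147, 61.0 and 201 CPM in vehicle and at 78.9, 103, 102 and 83.3 CPM with NAM/PN. Vehicle 3 lay below all NAM/PN values and the other 3 vehicle libraries above them. The log2 fold change was -0.64 (SE 0.268; edgeR adjusted p = 0.434). Without vehicle replicate 3, the library with the most ribosomal RNA, the value was -0.89 and passed the test (edgeR adjusted p = 0.022), and without both libraries of pool 3 it was -0.95 (edgeR adjusted p = 0.0453). Without both libraries of pool 4 it was -0.38, and over all libraries and pools left out the adjusted p reached 0.865. Nt5c3b, a cytosolic nucleotidase, was at 25.9 ± 7.06 CPM in vehicle and 43.5 ± 12.4 CPM with NAM/PN, higher in 4 of 4 pools (log2 fold change 0.75, SE 0.310, edgeR adjusted p = 0.416). Nt5c3, a related nucleotidase named after its values were seen, was at 42.8 ± 12.2 and 64.2 ± 14.7 CPM, also higher in 4 of 4 pools (log2 fold change 0.59, edgeR adjusted p = 0.484, and 0.35 without pool 4).

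Production of NADPH uses the NADP+ that the kinases provide. A list of 12 genes was read for this step, and whether each enzyme works mainly with NADP+ or with NAD+ was not examined. Of the 12, 10 were tested, 9 had a positive log2 fold change, and the median was 0.21, beside -0.0022 over all tested genes. Their summed level was 774 to 930 CPM in vehicle and 945 to 1250 CPM with NAM/PN. Without Pgd, a choice made after the data were seen, the sums overlapped, at 517 to 615 CPM in vehicle and 584 to 713 CPM with NAM/PN. Pgd, for the 6-phosphogluconate dehydrogenase of the pentose phosphate pathway, was at 314, 257, 270 and 257 CPM in vehicle and at 361, 362, 351 and 539 CPM with NAM/PN. All NAM/PN values lay above all vehicle values, and NAM/PN 4 was the highest. Groups did not overlap in 7.21% of all tested genes either, so this is not particular to Pgd. The log2 fold change was 0.55 (SE 0.174; 95% interval 0.19 to 0.92), which missed the threshold in edgeR's test (adjusted p = 0.173) and passed it in DESeq2 (adjusted p = 0.0456). With a library or pool left out, the log2 fold change ran from 0.35 (without pool 4) to 0.67, and the edgeR adjusted p from 0.192 to 0.585.

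Genes of the list of NAD+ glycohydrolases and pyrophosphatases were low. Bst1 had 0 counts in all 8 libraries, and Cd38, the main NAD+ glycohydrolase of many tissues, had 11 counts in vehicle 1 and 0 elsewhere. Nudt13, a mitochondrial NADH pyrophosphatase, was at 11.0 ± 4.78 CPM in vehicle and 6.14 ± 4.79 CPM with NAM/PN (log2 fold change -0.84, edgeR adjusted p = 0.869). Nudt12, for the peroxisomal NADH pyrophosphatase, averaged 1.94 and 2.33 CPM. Nudt7, a related gene best known for a peroxisomal coenzyme A diphosphatase, was at 9.76 ± 6.87 and 2.82 ± 2.01 CPM (log2 fold change -1.78, edgeR adjusted p = 0.713). With a library or pool left out, the log2 fold change ran from -1.61 to -0.38 for Nudt13 and from -2.27 to -0.96 for Nudt7. Of the carriers, Slc25a51, which brings NAD+ into mitochondria, stood near the level of Nadk. It was at 107.5 ± 37.1 CPM in vehicle and 108.2 ± 9.55 CPM with NAM/PN, and Slc25a17, the peroxisomal carrier, at 35.7 ± 10.9 and 47.0 ± 16.6 CPM (edgeR adjusted p = 0.996 and 0.822). With a library or pool left out, their log2 fold changes of 0.01 and 0.40 ran from -0.15 to 0.25 and from 0.13 to 0.59. Of the 5 carrier and NAD(P)HX repair genes, all tested, 4 had a positive log2 fold change.

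**Figure D4:**
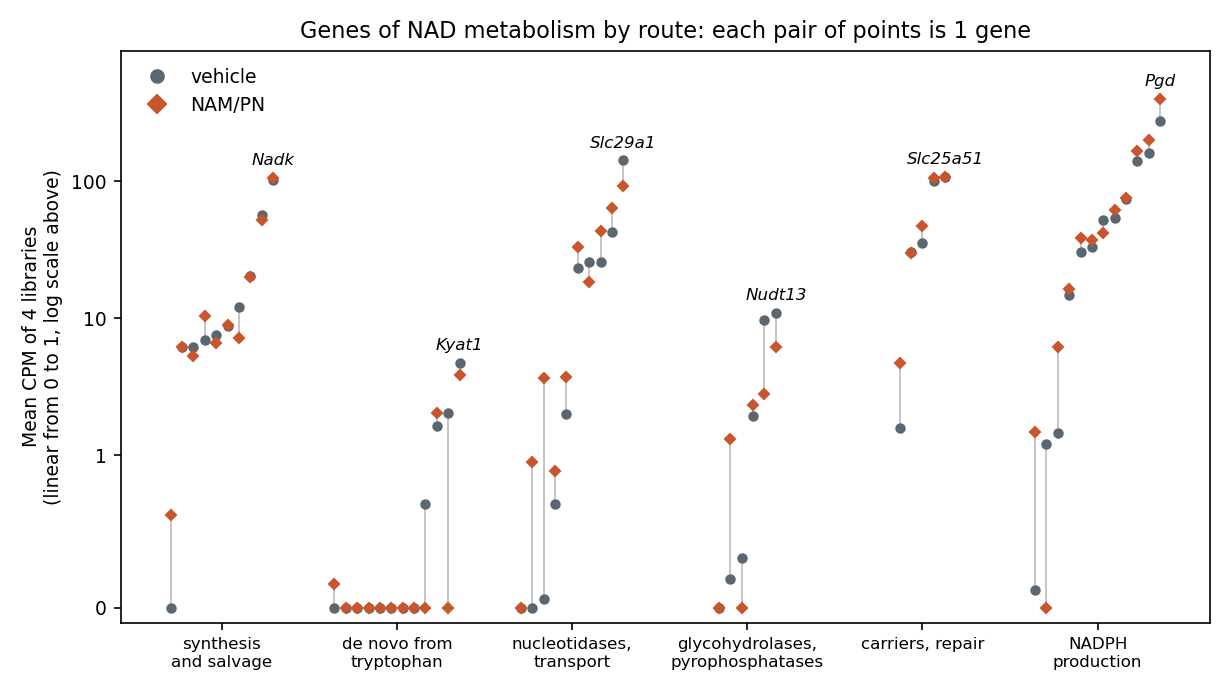
Mean CPM of 4 libraries for each gene of 6 groups of NAD metabolism, vehicle (circles) and NAM/PN (diamonds), joined by a line per gene, on an axis that is linear from 0 to 1 and logarithmic above; the highest gene of each group is named. In the tryptophan route 7 of 12 genes sit at 0 in both groups, and Pgd, Slc29a1 and Slc25a51 exceed the mean level of Nadk with vehicle.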

How the data were processed

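RNA of 8 MuSC libraries was measured with a QuantSeq 3′ kit. What the authors deposited were raw counts, the reads assigned to each gene, not normalized. According to the methods, reads were demultiplexed with Bcl2FastQ, converted with casava, aligned to GRCm38 by RNASTAR and counted by htseq-count, for which the submitters' processing notes give HTSeq 2.16.2. Annotation release, strand setting and treatment of multi-mapping reads were not given in the sources used here.

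Members and lists were chosen with earlier results of these data known. All 10 members and the 2 paralogs are named. Of each other NAD pathway list, the highest gene, the gene with the smallest p and any called gene are named. Further genes were named after their values were seen (the genes at 0, Cd38, Bst1, Nudt12, Nt5c3, Ido1, Afmid and Nt5e). Symbols and positions came from GENCODE M21 and promoters from RefSeq GRCm38.p6. The whole table was filtered with filterByExpr (minimum count 10, minimum total count 15), scaled by TMM and fitted with edgeR 4.0.16 in R 4.3.3 (glmQLFit and glmQLFTest, Benjamini-Hochberg adjustment over 12060 genes, threshold 0.05), without a block. Fold changes are fitted log2 values of NAM/PN over vehicle and 95% intervals come from their standard errors. Alternatives used limma 3.58.1 and DESeq2 1.42.0, RLE factors, a robust fit, no filter, a threshold of 0.1, removal of 356 ribosomal RNA genes, each library or pool left out, and the pool as a replicate block. The labels pair the libraries by pool of mice. Correlations of same-pool deviations were -0.00791, 0.0136, -0.0366 and 0.0303. The test was checked on simulated counts without pools, where it called 97 of 100 4-fold and 57 of 100 2-fold changes. Changes were planted only in genes of higher level, so this check does not cover the low members. No 2 libraries of the same group agreed within counting noise. P-values of the main fit measure the spread between libraries within a group and do not use the pairing by pool. Floors cover counting error only.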

Additional observations from a re-analysis of the deposited data

Results flagged for a closer look

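In the vehicle group, Nmnat3 was at 1.61 CPM in vehicle 3 and between 9.35 and 9.69 CPM in the other 3 libraries, a gap of 0.959 of the group's range, past the limit of Dixon's test for 4 samples. Without vehicle replicate 3 the log2 fold change of Nmnat3 was -0.53 (edgeR adjusted p = 0.964). In the NAM/PN group, Pnp2 was at 1.39 CPM in NAM/PN 2 and between 0 and 0.152 CPM in the others, a gap of 0.891 of the range. Chance marks about 1 in 20 groups, so 1.1 of the 22 groups examined would be marked without any cause, and 2 were.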

How the results depend on the processing

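No member passed the test under any of the 20 alternatives. Over the 9 tested members and 19 alternative fits, 135 of 171 fold changes kept their direction, 36 turned and 0 passed the threshold, with a lowest adjusted p of 0.425, and Nmnat1 alone never turned. With the pool as a replicate block, which pairs the libraries, 156 genes were called in place of 154 and 0 members, and the log2 fold changes of Nmnat2 and Nmrk1 became -0.16 and -0.53, while 0 of the other NAD pathway genes were called and 13 differentiation genes in place of 12. Without a filter they were -0.00067 and -0.012. Under voom they were -0.024 and -1.09, and Nampt and Pnp became 0.0069 and 0.19. Leaving out a library or a pool gave log2 fold changes of -0.01051 to 0.1038 for Nadk, -0.1913 to 0.9347 for Nadk2, -1.184 to 0.8505 for Nadsyn1, -0.2584 to -0.004922 for Nampt, -1.704 to -0.3579 for Nmnat1, -0.5021 to 0.5146 for Nmnat2, -0.9338 to 0.2903 for Nmnat3, -0.6488 to 0.7052 for Nmrk1 and -0.4909 to 0.2534 for Pnp, and of -1.755 to -0.2363 for Nmrk2. Over all genes, DESeq2 called 388, no filter 366, voom 232 and a threshold of 0.1 called 244, against 42 (without pool 2) to 177 (without NAM/PN replicate 4) when a library or pool was left out. Fewer samples were fitted there; the cause of the other shifts was not tested. Of the other NAD pathway genes, 1 was called by DESeq2 (Pgd), and 0 to 1 with a library or pool left out (Slc29a1, without vehicle replicate 3 or pool 3). Intervals of Nadk, Nampt and Pnp were narrower than those of the other tested members, and the shares of counting error and of spread between libraries in this were not separated.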

Other observations

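Of the members and other NAD pathway genes, 11 had at least 10 counts but lay below edgeR's filter, and 7 of these (63.6%) had counts in 1 group only, beside 50.2% of all 4801 such genes. Afmid and Nt5e, described here, were named after their values were seen. Afmid, the kynurenine formamidase of the tryptophan route, had 32, 8, 11 and 18 counts in vehicle 1 to 4 and 0 counts in all 4 NAM/PN libraries, a pattern of all libraries of 1 group and none of the other that 33 of the 4801 genes (0.687%) had. Its vehicle mean of 2.03 ± 1.24 CPM was at least 5.31-fold higher than the floor of 3 counts per library, 0.381 CPM on average, with NAM/PN. DESeq2 gave an adjusted p of 0.0588. Nt5e, the cell surface 5′-nucleotidase CD73, had 2, 0, 0 and 0 counts with vehicle and 76, 17, 20 and 0 counts with NAM/PN, so that NAM/PN 1 held most of them and the groups overlapped.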
